A study of Drosophila melanogaster with 16 samples.

Results

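Octopamine and tyramine are the invertebrate counterparts of noradrenaline. Tyrosine decarboxylases turn tyrosine into tyramine, tyramine beta-hydroxylase turns tyramine into octopamine, and both amines act through G protein-coupled receptors that move cyclic AMP or calcium. In Drosophila, octopamine neurons are known for roles in arousal, reward learning and motor behavior, and flies that lack tyramine beta-hydroxylase gain less tolerance to ethanol after a first exposure.

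The genes described are 6 in number: the decarboxylases Tdc1 and Tdc2, the hydroxylase Tbh, and the receptors Oct-TyrR, Octbeta1R and Oamb. They were chosen by their role, at a time when the falling ethanol response of Tdc1 on these same arrays was already known, and each gene's probe set was selected on its highest mean over the 16 arrays. Of the 6, 5 were measured among 17104 genes and unnamed probe sets, and Oamb was not analysed here. Of the 5 measured, 4 passed a filter on low values (log2 4 or more on at least 3 arrays), together with 8110 of the 17104 in all. Tdc2 did not pass. Because the response of Tdc1 to ethanol was in view, its ethanol values, with their intervals and calls, are a description and not an independent test.

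Heads of male flies of the Berlin background, 2 to 4 days old, were profiled on Affymetrix arrays after 30 min of ethanol vapor (saturated vapor thinned to 60% with humidified air; 7 arrays) or of humidified air alone (7 arrays). Exposed flies recovered in vials with food for 0 to 120 min in steps of 30 min, or for 180 or 210 min, with 1 array for each exposure and time. The other 2 arrays, A and B, came from flies that had no exposure. No allele, transgene or drug other than ethanol distinguished the groups. Each exposed array is 1 pool made from 3 groups of 200 flies. Only the unexposed group thus holds arrays of equal treatment, and exposed pools have no repeat at any time.

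Facts of the whole array set that touch these genes are few. Array medians lay between 2.88 and 3.03 log2. Of 9 neuron markers measured 7 passed the filter, as did 6 of 6 photoreceptor and 6 of 6 glia markers. The summed neuron list, in which the most abundant genes weigh most, had 13.55 to 13.94 in air, 13.58 to 13.87 after ethanol and 13.65 to 13.84 in unexposed heads. Its list mean against unexposed ran from -0.32 (air, 120 min) to 0.39 (ethanol, 0 min, where air had -0.03). The part of these shifts in the values of the members was not tested. Markers of the male reproductive tract (18 measured of 20) and of the midgut (15 of 17) were all under log2 4 in unexposed heads. As list means they stood 4.24 and 3.0 log2 above unexposed in the air array at 0 min, 2.72 and 2.11 at 60 min, and 3.05 and 2.45 at 120 min. In the ethanol array at 120 min they stood 1.39 and 2.13 above unexposed, and on every other array within 0.05 of it. Antennal markers (13 measured of 14) were lower after ethanol, with a summed level of 10.79 to 12.01 log2 against 12.32 to 13.60 after air and 13.20 to 13.29 in unexposed heads. The arrays measure RNA of the whole head, in which fewer cells of a type and less RNA per cell cannot be told apart.

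The strongest ethanol response among these genes was that of Tdc1, which encodes the tyrosine decarboxylase known mainly from tissues outside the nervous system (probe set 1635665_at; chromosome 2R, 6677001 to 6680391 on the Release 6 assembly). Directly after ethanol its level was 8.83 log2, against 6.76 after air at the same time. It then stood at 8.60 after 30 min, 7.99 after 60 min, 7.58 after 90 min, 6.92 after 120 min, 6.78 after 180 min and 6.75 after 210 min. The level in ethanol thus fell at each successive time, and from 120 min on it lay close to the air and unexposed arrays.

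The air arrays held Tdc1 within a narrow range over the same hours. Their values were 6.76, 6.80, 6.75 and 6.62 log2 at 0, 30, 60 and 90 min, and 6.73, 6.89 and 6.54 at 120, 180 and 210 min. Unexposed heads A and B had 6.56 and 6.49. The first 5 ethanol arrays were above the highest air array, and all 7 were above both unexposed arrays, as were 6 of the 7 air arrays.

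**Figure D1:**
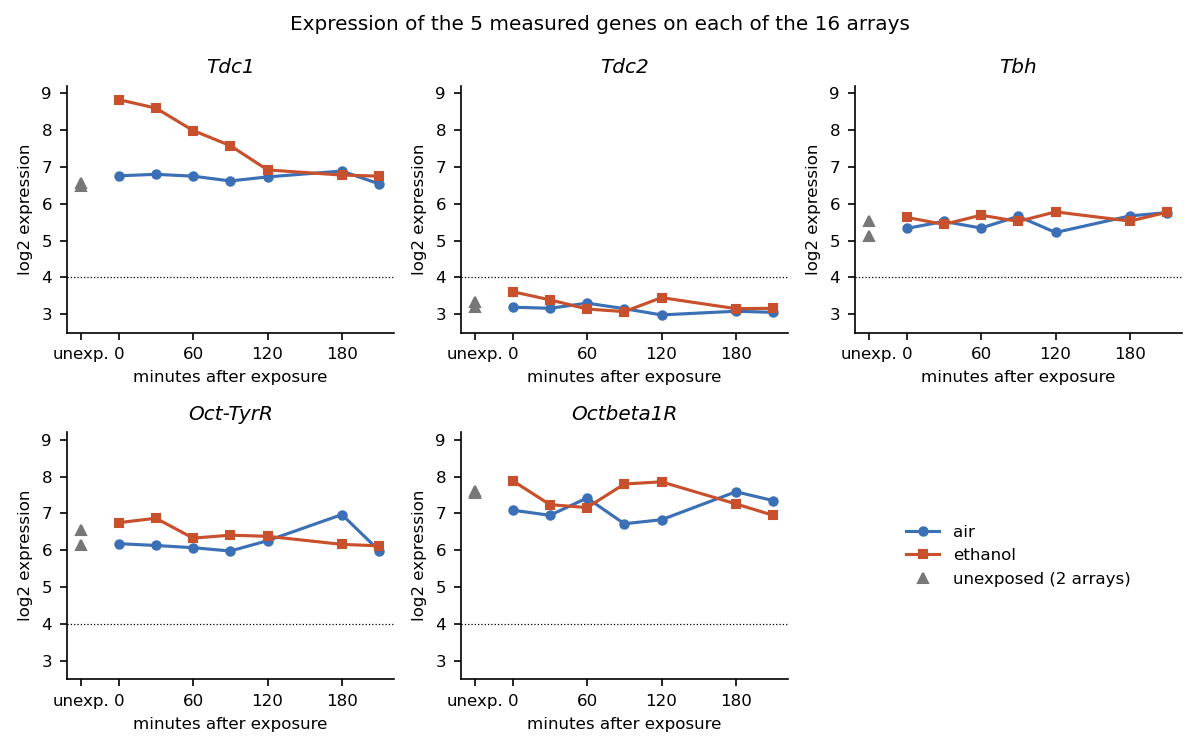
Level in log2 (vertical axis) of the 5 measured genes against minutes after exposure (horizontal axis), with 1 point for each air or ethanol array and triangles for the 2 unexposed arrays; the dotted line is the filter value of log2 4. Tdc1 after ethanol goes from 8.83 to 6.75 while air stays between 6.54 and 6.89, and Tdc2 lies under log2 4 on all 16 arrays.

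Set against the air array of its own time, Tdc1 was 4.20-fold higher at 0 min, 3.49-fold at 30 min, 2.38-fold at 60 min and 1.94-fold at 90 min. At 120, 180 and 210 min the ratio was 1.14, 0.926 and 1.16. Against the mean of the 2 unexposed arrays the ethanol ratio went from 4.94 at 0 min to 1.16 at 210 min. The 4 times up to 90 min thus had the 4 highest ratios, and from 120 min on the pairs differed little.

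In a limma fit over all 8110 genes with the time as a factor, the Tdc1 difference changed by -0.62 log2 per hour (SE 0.09, 95% interval -0.83 to -0.41). Averaged over windows it was 1.94 at 0 and 30 min (SE 0.13), 1.10 at 60 and 90 min (SE 0.13) and 0.09 at 120, 180 and 210 min (SE 0.11). Over all 7 times the mean difference was 0.91 (SE 0.27, interval 0.30 to 1.52), a value that joins high early and near-zero late times. At an adjusted p under 0.05, Tdc1 was 1 of 4 members called for the slope, against 0.678% of all genes (55 of 8110), and 1 of 4 in the early window, against 0.037% (3 genes). The rule had this contrast in view, so these counts are a description.

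The calls of Tdc1 often ended when 1 pair of arrays was left out, while the sizes moved little. With a pair from 0 to 180 min left out, each in turn, the slope lay between -0.62 and -0.58 per hour and lost its call, and without 210 min it was -0.79 and stayed called. These losses were not particular to Tdc1. Of all 8110 genes, 0 were called for the slope without any 1 of the pairs from 0 to 120 min. Without 180 min 1 gene was called, and without 210 min 69 were. The early difference stayed at 1.94 but lost its call without the 120 min pair, a refit in which 0 of 8110 genes were called early. The slope in ethanol arrays alone lost its call without the 0, 30 or 180 min array, at -0.65 to -0.61 per hour.

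Tdc1 was also set beside the reproductive tract and midgut markers. The ethanol arrays at 0, 30, 60 and 90 min had list means within 0.04 log2 of unexposed heads for the 2 lists. At 30 and 90 min neither the ethanol nor the air array carried these markers, and the Tdc1 differences there were 1.80 and 0.96. Without the 0, 60 and 120 min arrays the slope was -0.59 per hour and the mean difference 0.72, and with the mean of the markers as a covariate they were -0.63 and 0.57, against -0.62 and 0.91 before. The slope lost its call in both refits, in each of which 0 of all 8110 genes were called for the slope.

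**Figure D2:**
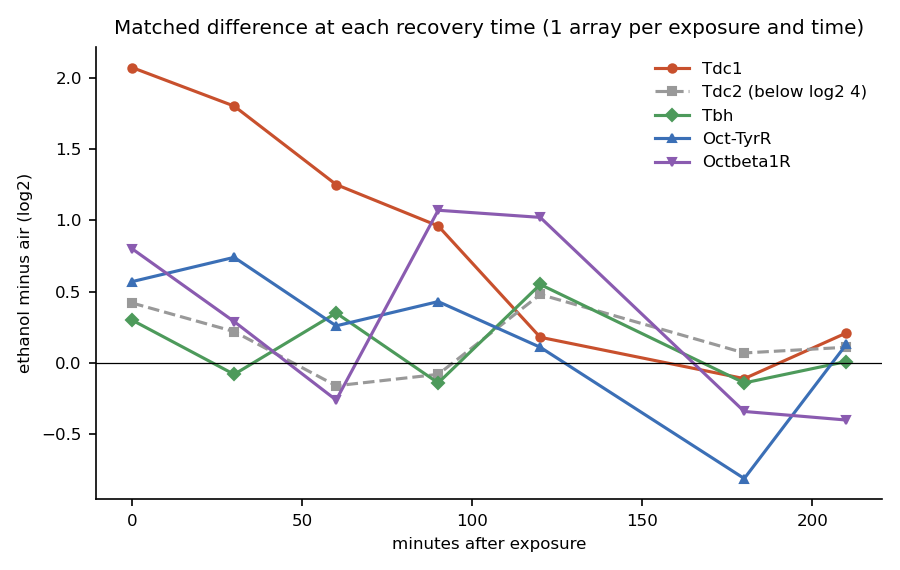
Ethanol minus air in log2 (vertical axis) at each recovery time in minutes (horizontal axis), 1 matched pair of arrays per point and 1 line per gene. Tdc1 goes from 2.07 at 0 min to 0.21 at 210 min, and Octbeta1R takes values between -0.40 and 1.07, with its highest at 90 min and its lowest at 210 min.

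Tdc1 was also compared without the ethanol contrast. Air against unexposed heads gave a difference of 0.20 log2 (SE 0.44, interval -0.73 to 1.13, adjusted p = 1.0), in a fit with 3 groups whose spread includes the ethanol time course. The slope over recovery in air was -0.03 per hour (SE 0.04, interval -0.12 to 0.07, adjusted p = 0.76). Within the ethanol arrays alone the slope was -0.65 per hour (SE 0.08, interval -0.83 to -0.46), a description for the reason given above.

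Tdc2 encodes the decarboxylase of octopamine and tyramine neurons and lies 4353 bases from Tdc1 (probe set 1632764_at; chromosome 2R, 6684745 to 6689974). Its level was 2.98 to 3.30 log2 after air (median 3.15), 3.07 to 3.61 after ethanol (median 3.16) and 3.18 and 3.32 in unexposed heads A and B. The 2 highest of the 16 values were the ethanol arrays at 0 min (3.61) and 120 min (3.45). All values lie under the filter, and Tdc2 was not tested.

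The annotation places Tdc1, Tdc2 and CG15909, which lies between them, inside the span of Rpp25 (chromosome 2R, 6675822 to 6693162). To show the surroundings, the 4 coding genes before Tdc1 and the 5 after it in the RefSeq order were taken, a choice made after the values of Tdc1 were seen. Apart from Tdc1, 6 of these 9 passed the filter (Hsepi, PGAP3, Rpp25, CG3270, Mob4 and Rab2). Their early differences ran from -0.10 for Rpp25 to 0.34 for Hsepi, with adjusted p between 0.84 and 0.99, and their slopes from -0.23 to 0.05 per hour. None of the 6 was called in either comparison, beside 0.037% of all genes early and 0.678% for the slope.

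Tbh encodes the enzyme that makes octopamine from tyramine (probe set 1627317_a_at; X chromosome, 7995697 to 8027394). In order of recovery time the air arrays had 5.33, 5.52, 5.34, 5.66, 5.22, 5.67 and 5.76 log2, and the ethanol arrays 5.63, 5.44, 5.69, 5.52, 5.78, 5.53 and 5.77. Unexposed heads A and B had 5.53 and 5.11, a gap of 0.42 that exceeds the range of the ethanol arrays. The groups overlapped throughout.

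The mean difference of Tbh between ethanol and air was 0.12 log2 (SE 0.10, interval -0.09 to 0.34, adjusted p = 0.676), with ethanol higher at 4 of 7 times. The 3 lowest air values are those at 0, 60 and 120 min, the air arrays with reproductive tract and midgut markers, and the differences there were 0.30, 0.35 and 0.55. At 30, 90, 180 and 210 min they were -0.08, -0.14, -0.14 and 0.01. Without the 0, 60 and 120 min arrays the difference turned to -0.09 (adjusted p = 0.669). With the mean of these markers as a covariate it was -0.01 (adjusted p = 0.983). The ethanol array at 120 min, which carries them too, had the highest Tbh value of all. Most arrays with these markers are air arrays, so their part in the Tbh difference cannot be told apart from that of exposure.

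No slope or window call was made for Tbh. Its difference changed by -0.06 per hour (SE 0.08, adjusted p = 0.73), and the early, middle and late differences were 0.11, 0.11 and 0.14 (adjusted p = 0.948, 0.936 and 0.776). The interval of the early difference was -0.37 to 0.59.

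Oct-TyrR encodes a receptor that answers to tyramine more than to octopamine and lowers cyclic AMP (probe set 1627441_at; chromosome 3L, 22035003 to 22065279). After ethanol it had 6.75 and 6.87 log2 at 0 and 30 min, then 6.33, 6.41 and 6.38 at 60, 90 and 120 min, and 6.16 and 6.12 at 180 and 210 min. After air it had 6.18, 6.13, 6.07, 5.98 and 6.26 up to 120 min, 6.97 at 180 min and 5.99 at 210 min. Unexposed heads A and B had 6.54 and 6.15. The early ethanol arrays were thus high and the late ones low, but no ethanol array exceeded the single air array at 180 min.

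The early difference of Oct-TyrR was 0.65 log2 (SE 0.23, interval 0.12 to 1.19), which did not pass over all genes (adjusted p = 0.713). The middle and late differences were 0.34 and -0.19 (adjusted p = 0.71 and 0.74), and the mean over all times was 0.20 (SE 0.16, adjusted p = 0.684), with ethanol higher at 6 of 7 times. That mean was 0.37 without the 180 min pair (adjusted p = 0.143) and 0.12 without the 30 min pair (adjusted p = 0.892). The difference changed by -0.29 per hour (SE 0.10, adjusted p = 0.243), and by -0.16 without the 180 min pair. Within the ethanol arrays alone the slope was -0.20 per hour (SE 0.04, interval -0.30 to -0.09, adjusted p = 0.0625), against 0.09 per hour in air (SE 0.09, adjusted p = 0.673). Neither slope passed, and the difference between the slopes of Oct-TyrR and Tdc1 was not tested.

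Octbeta1R encodes a beta-adrenergic-like octopamine receptor that raises cyclic AMP (probe set 1626050_at; chromosome 3R, 22497215 to 22520078). In order of recovery time its ethanol arrays had 7.89, 7.24, 7.16, 7.80, 7.86, 7.26 and 6.95 log2, and its air arrays 7.09, 6.95, 7.42, 6.72, 6.83, 7.59 and 7.35. Unexposed heads A and B had 7.57 and 7.60, close together. Ethanol was higher at 0, 30, 90 and 120 min and lower at 60, 180 and 210 min.

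For Octbeta1R the mean difference between ethanol and air was 0.31 log2 (SE 0.21, interval -0.16 to 0.79, adjusted p = 0.61), and it was 0.19 without the 90 or the 120 min pair. The slope estimate was -0.25 per hour (SE 0.16, interval -0.63 to 0.13, adjusted p = 0.452). The early, middle and late differences were 0.55, 0.40 and 0.09, with standard errors of 0.42, 0.42 and 0.34 (adjusted p = 0.878, 0.855 and 0.938). The early value was 0.29 without the 0 min pair. Air lay 0.45 under unexposed heads (SE 0.26, interval -0.99 to 0.09, adjusted p = 0.854), and 6 of 7 air arrays were under both unexposed arrays. The other 2 probe sets of Octbeta1R stayed between 2.18 and 2.62 log2 on all arrays, so the gene's values rest on 1 probe set. The part of the lower antennal markers in the values of either receptor was not tested.

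**Figure D3:**
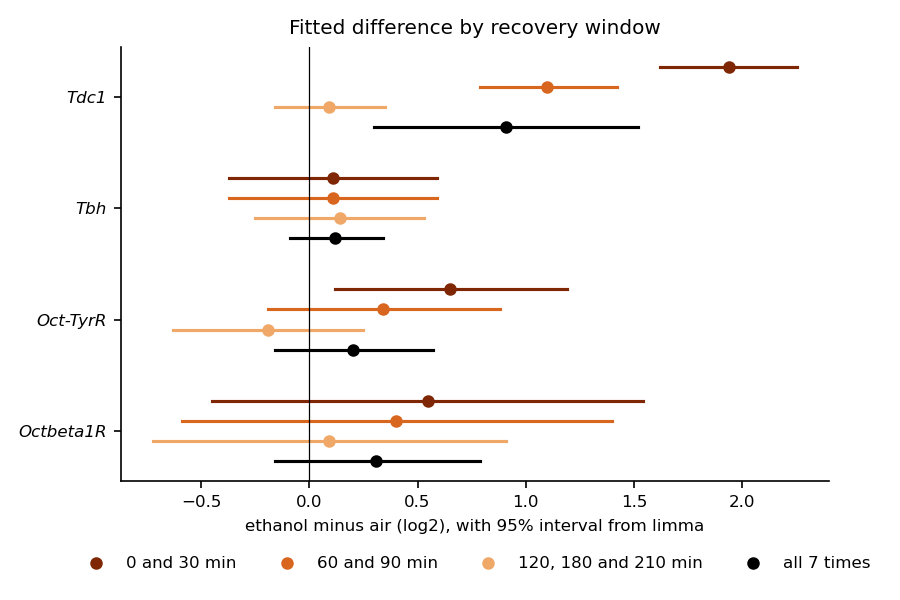
Fitted ethanol minus air difference in log2 (horizontal axis) of the 4 genes that passed the filter, with points for the estimates and bars for the 95% intervals, by recovery window and over all 7 times. The early estimate is 1.94 for Tdc1, 0.65 for Oct-TyrR, 0.55 for Octbeta1R and 0.11 for Tbh, and the late estimates lie between -0.19 and 0.14.

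Counts over the 4 tested genes were read beside the share of all genes called. For ethanol against air over all times 0 of 4 were called, against 0.691% of genes (56 of 8110; 980 at unadjusted p under 0.05), and in the late window 0 of 4, against 0.949%. In the middle window limma called 0 of 4 and 0% of genes, with 846 at unadjusted p under 0.05. Against unexposed heads, air had 0 of 4 and 0% (520 genes at unadjusted p under 0.05), and ethanol 0 of 4 and 0.715%. The 2 comparisons share the unexposed arrays. Over recovery the slope in air had 0 of 4 and 0% (822 genes at unadjusted p under 0.05), and the slope in ethanol 1 of 4, Tdc1, against 3.23%. The median early difference of the 4 was 0.60, beside 0.07 for all genes, and their median slope -0.27 per hour, beside -0.05. The 4 include Tdc1, whose ethanol response was known when the genes were chosen. Its call and these medians are thus a description.

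Against unexposed heads, ethanol differed by 1.11 log2 for Tdc1 (SE 0.44), 0.30 for Tbh (SE 0.14, adjusted p = 0.462), 0.09 for Oct-TyrR (SE 0.23, adjusted p = 0.967) and -0.14 for Octbeta1R (SE 0.26, adjusted p = 0.948). Air differed by 0.18 for Tbh (SE 0.14, adjusted p = 0.998) and by -0.12 for Oct-TyrR (SE 0.23, adjusted p = 1.0). None was called, and the 2 unexposed arrays themselves lay 0.42 apart for Tbh and 0.39 for Oct-TyrR.

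Among the 4 genes, the level of Tdc1 over the 16 arrays had a Pearson correlation of 0.63 with Oct-TyrR, 0.30 with Octbeta1R and 0.15 with Tbh. Their ethanol minus air differences over the 7 times had 0.82, 0.31 and 0.09. These values describe arrays that share exposure and normalization.

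The genes most like Tdc1 in level over the 16 arrays were CG13116 (r = 0.98), Pino (r = 0.96) and CG15673 (r = 0.95). Their differences from air at 0 min were 1.51, 1.26 and 1.96 log2, and at 120 min 0.23, 0.08 and 0.36. By the difference over the 7 times the nearest were Edc3 (r = 0.99), sug (r = 0.99) and CG12384 (r = 0.98). The differences of CG12384 lay only between -0.24 and 0.25 log2. The transcription factor gene sug differed from Tdc1 in going below air, from 2.45 at 0 min to -1.70 at 120 min and -2.06 at 180 min, whereas Tdc1 had 0.18 and -0.11 there.

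The other 3 genes had nearest patterns of their own. Over the 16 arrays these were CG9992 (r = 0.93), brwl and vimar (both r = 0.89) for Oct-TyrR. For Octbeta1R they were Nlg3 (r = 0.86), kmr and CG5065 (both r = 0.84), and for Tbh CG14285, CG1146 (both r = 0.84) and HP1c (r = 0.82). By the difference over the 7 times they were Droj2, CG10654 (both r = 0.99) and CG9992 (r = 0.98) for Oct-TyrR. They were CG5065 (r = 0.99), ZAP3 (r = 0.97) and CG7492 (r = 0.96) for Octbeta1R, and mRRF1 (r = 0.98), Cadps and CG30010 (both r = 0.96) for Tbh. Each is the top of a search over all kept genes with 1 symbol, without a test, and a high r does not mean a like size. The differences of Droj2 lay only between -0.09 and 0.08 log2, and those of CG7492 between -0.12 and 0.21.

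**Figure D4:**
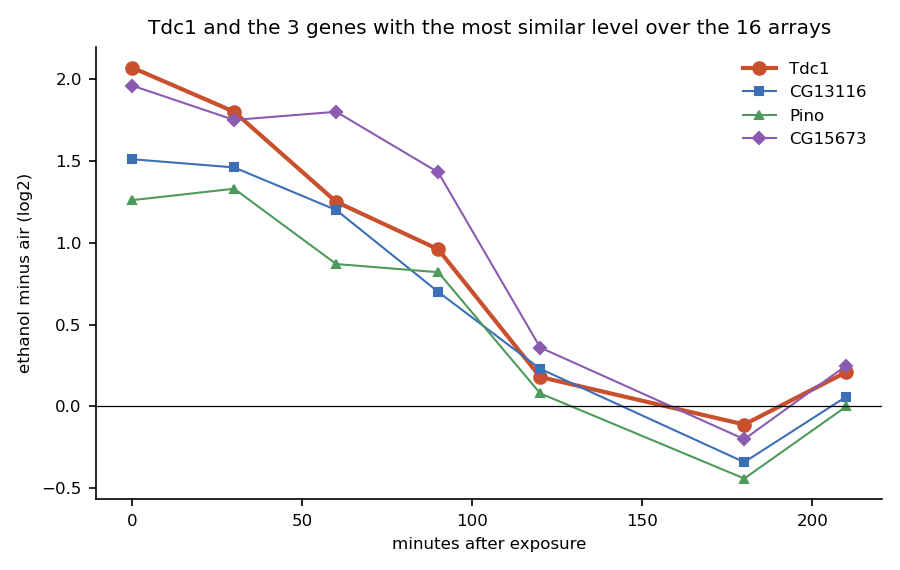
Ethanol minus air in log2 (vertical axis) against recovery time in minutes (horizontal axis) for Tdc1 and the 3 genes whose level was most like it over the 16 arrays. All 4 lie between 1.26 and 2.07 at 0 min and between -0.44 and -0.11 at 180 min.

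The remaining receptors of this family were not detected at the filter value. Octbeta2R, Octbeta3R and Octalpha2R, which bind octopamine, and TyrR and TyrRII, which bind tyramine, had their highest value at 2.81 log2 (Octbeta3R) and their lowest at 2.01 (TyrRII). None of the 5 was tested, so nothing can be said of their response.

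Genes that supply, transport or break down amines and their precursor tyrosine gave 13 measured of 18 listed, of which 9 passed the filter. For ethanol against air 0 of 9 were called, beside 0.691% of all genes. Their median was -0.18 beside -0.01 for all genes, and 7 of 9 were below 0. The smallest p-values were those of ine, a transporter gene (-0.18, adjusted p = 0.21), speck, which encodes an enzyme that acetylates amines (-0.25, adjusted p = 0.222), Faa (-0.20, adjusted p = 0.393) and Tat (-0.23, adjusted p = 0.408). Faa and Tat, like hgo, encode enzymes of tyrosine breakdown. In the late window 0 of 9 were called, beside 0.949% of all genes. The median there was -0.31 beside -0.07 for all genes, and 8 of 9 were below 0. The smallest late p-values were those of speck (-0.39, adjusted p = 0.0875), Tat (-0.47, adjusted p = 0.157), Faa (-0.35, adjusted p = 0.176) and hgo (-0.55, adjusted p = 0.226).

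For the slope, 1 of these 9 was called, beside 0.678% of all genes (49 of the 55 called were lower), and all 9 estimates were below 0 (median -0.10 per hour beside -0.05 for all genes). The called gene was hgo, homogentisate dioxygenase, at -0.31 per hour (SE 0.05, adjusted p = 0.0468). After ethanol it had 9.12, 8.96, 8.88, 8.96, 8.61, 7.87 and 8.20 log2 in order of time, and after air 8.85, 8.96, 8.84, 9.17, 8.70, 8.53 and 9.11. Its ethanol arrays were lowest at 180 and 210 min, below every air array, whereas the high Tdc1 values were early. Leaving out each time pair in turn ended the call every time (adjusted p from 0.0677 to 0.164). In the ethanol arrays alone the slope of hgo was -0.33 per hour (SE 0.06, adjusted p = 0.039, beside 3.23% of all genes called), a call that held only when the 90 min array was the one left out.

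Genes that act downstream of the receptors gave 16 measured of 24 listed, and 15 passed the filter. In ethanol against air 0 of 15 were called, beside 0.691% of all genes. Of the 15, 13 were above 0, and the median was 0.11 beside -0.01 for all genes. rut, the calcium-responsive adenylyl cyclase gene, had 0.33 (SE 0.12, adjusted p = 0.328), and Itpr, the inositol trisphosphate receptor gene, 0.24 (adjusted p = 0.379). The adenylyl cyclase gene Ac76E had 0.16 and the phospholipase gene Plc21C 0.15. For the slope 0 of 15 were called, beside 0.678% of all genes, with 7 above and 8 below 0.

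The estimates of rut did not pass in any window. Its differences from air were -0.38, 0.20, 0.47, 0.34, 0.43, 0.67 and 0.59 log2 in order of time, with a slope estimate of 0.22 per hour (SE 0.07, adjusted p = 0.175). Its late difference was 0.56 (SE 0.12, adjusted p = 0.121). The dopamine and serotonin enzyme genes measured, 3 of 6 listed, had early differences of 0.37 for ple, 0.26 for Ddc and 0.14 for Pu (adjusted p = 0.829, 0.861 and 0.863). None was called in any comparison, where the share of all genes called was at most 3.23%.

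**Figure D5:**
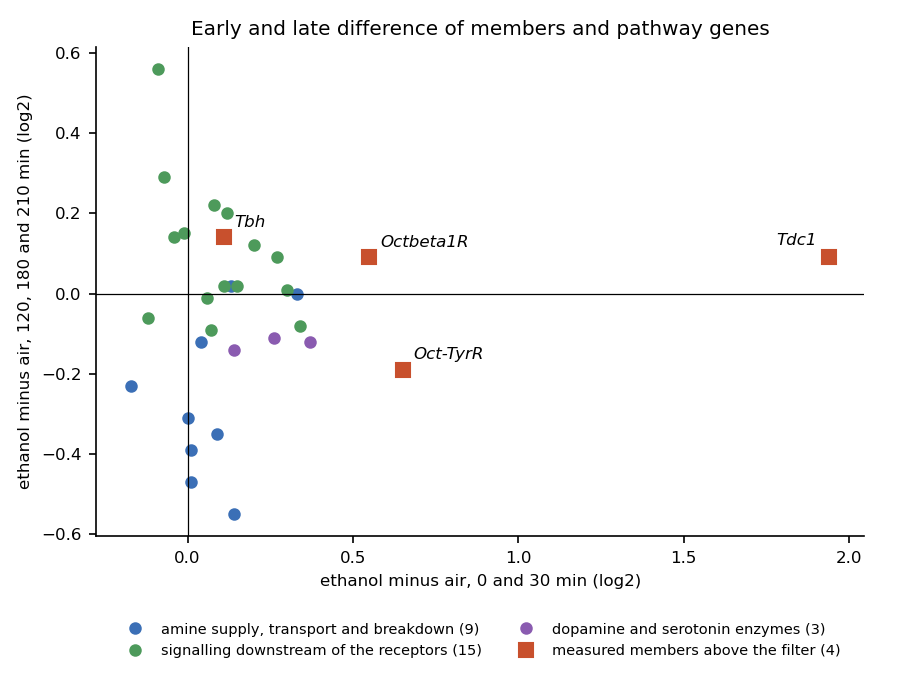
Ethanol minus air in log2 over the early times (0 and 30 min, horizontal axis) and over the late times (120, 180 and 210 min, vertical axis), with squares for the 4 tested genes and circles for the related genes of the lists that passed the filter. Tdc1 stands at 1.94 early and 0.09 late, and no related gene exceeds 0.37 early.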

How the data were processed

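The deposited values are log2 intensities of Affymetrix Drosophila 2.0 arrays; the submitters' processing notes name GCRMA, without a version, as the authors' method. It corrects background from probe sequence and quantile normalizes the arrays, so a change in total RNA cannot be seen. Per the labels' protocols, RNA was extracted with Trizol and labelled with biotin. No probe or gene sequences were used here.

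Of 18952 probe sets, 183 controls were left out. For the rest, names came from GEO's platform annotation, updated by Entrez ID to RefSeq's table (13647 with 1 symbol, 402 with several, 4720 with none). The highest-mean probe set stood for each gene, and 8110 of 17104 features reached log2 4 on at least 3 arrays. limma 3.58.1 (R 4.3.3) fitted all 8110, with p-values adjusted by Benjamini-Hochberg and called under 0.05. Ethanol against air had the time as a factor, windows shared 1 fit, and groups against unexposed used all 16 arrays. p-values measure the spread between times, and those against unexposed also hold the spread between the 2 unexposed arrays. Precision follows each gene's spread and the number of arrays, not the number of pooled flies. Fits were tested on simulated data. Named genes were the 6 members, list genes that passed a test or had the 4 smallest p-values, and the 3 genes most like each member by Pearson correlation. Of the list entries, 35 of 160 without a probe set of 1 symbol were not analysed here. The members and lists were chosen with earlier results of these data known. Tables were made with pandas 2.3.3 and numpy 2.4.6, and plots with matplotlib 3.10.9, in Python 3.11.15.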

Additional observations from a re-analysis of the deposited data

Results flagged for a closer look

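Oct-TyrR on the air array at 180 min, at 6.97 log2, stood far above the other 6 air arrays, by 0.71 of the range of the group. The same array made its ethanol minus air difference at 180 min, -0.81, the lowest by far, with a gap of 0.60 of the range. These 2 came from 12 sets of 7 values tested (air, ethanol and their difference for 4 genes). Chance flags about 5% of such sets, and the arrays of a set differ in recovery time.

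The ethanol response of Tdc1 differed between recovery times, with a change of -0.62 log2 per hour in a limma interaction term, a contrast that was known when the genes were chosen.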

How the results depend on the processing

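With 1 array per exposure and time, leaving out 1 pair changed the calls more than the sizes of called values. For the slope it often left 0 of all 8110 genes called. Over 638 refits of 38 single-gene values, 574 kept direction and side of the threshold, 43 lost a call, 6 gained one and 15 changed sign. Most of these refits were of values not called, which had no call to lose. Among called values, Tdc1 kept its call in 6 of 18 refits for the slope, 13 of 15 for the early window and 12 of 17 for the slope in ethanol. The gene hgo kept its call in 3 of 18 for the slope and 8 of 17 for the slope in ethanol. For the slope, 1 of 4 members (Tdc1) was called, and 0 with no filter, quantile scaling, median scaling, array weights, the mean of the reproductive tract and midgut markers as a covariate, or without the 0, 60 and 120 min arrays; leaving out 1 time gave 0 to 1. The Tdc1 slope was -0.68 to -0.57 in the refits that lost the call, and -0.79 to -0.57 over all 18. In the early window the count was 0 with no filter, which tests 17104 features, and 0 to 1 with 1 time left out. In the middle window it was 1 with a filter at log2 6, quantile scaling, trend and robust variances, array weights or adjusted p under 0.10. For the slope in ethanol it was 0 with no filter or without the 0, 60 and 120 min arrays, 2 at adjusted p under 0.10 (Tdc1 and Oct-TyrR), and 0 to 1 with 1 time left out. Over all these alternatives the genes called ran from 0 to 150 for ethanol against air (56 in the report), 0 to 151 for its slope (55), 0 to 13 early (3), 0 to 70 in the middle (0) and 0 to 187 late (77). They ran from 0 to 21 for air against unexposed (0), 0 to 211 for ethanol against unexposed (58), 0 to 1 for the slope in air (0) and 0 to 638 for the slope in ethanol (262). The cause of these shifts was otherwise not tested.

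No sign change was in a called value. Tbh against air went to -0.09 without the 0, 60 and 120 min arrays and -0.01 with the covariate, and its slope to 0.02 and 0.06. With 1 time left out, Tbh ran from -0.08 to 0.30 (early), -0.14 to 0.35 (middle) and -0.06 to 0.28 (late). Octbeta1R ran from -0.26 to 1.07 (middle) and -0.37 to 0.34 (late), and Oct-TyrR from -0.35 to 0.12 (late). The slope in air ran from -0.07 to 0.03 for Tdc1 and -0.04 to 0.24 for Oct-TyrR. With 1 array left out, unexposed arrays included, air against unexposed ran from -0.03 to 0.39 for Tbh and -0.32 to 0.08 for Oct-TyrR, and ethanol against unexposed from -0.11 to 0.28 for Oct-TyrR. Without the replicate block (minutes as a linear term in place of paired times) the Tdc1 slope stayed called (-0.62) and that of hgo did not (-0.31, adjusted p = 0.209). The windows were not refitted without the 0, 60 and 120 min arrays or with the covariate.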
